A study of Mus musculus with 55 samples.

Results

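The 9 genes described here carry the paracrine and junctional exchange between the mouse oocyte and the granulosa cells around it. They were taken by name, 9 of the 51734 genes in the count tables, and were read in 52 libraries, each made from a single oocyte. Fully grown oocytes (FGOs) came from ovaries of adult females 10 to 12 weeks old, and metaphase II (MII) oocytes are the ovulated stage that follows meiotic maturation. The groups were 18 wild-type FGOs, 8 FGOs of Dnmt3a+/+ females homozygous for the D124A substitution in the ADD domain of DNMT3L (Dnmt3L-ADD), 8 FGOs of Dnmt3a ADA/ADA females with wild-type Dnmt3L (Dnmt3a-ADD), 8 FGOs homozygous for both alleles (double-ADD) and 10 wild-type MII oocytes. The ADA allele holds aspartate-to-alanine changes in the ADD domain of DNMT3A. The mutant lines were made by genome editing and backcrossed to C57BL/6J, and the alleles were carried in the germ line, so the follicle cells of a mutant female carried them as well as its oocytes. The number of females behind each group was not given in the sources used here, and the p-values below therefore measure the spread between oocytes, some of which may share a mother.

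The oocyte secretes GDF9, BMP15, BMP6 and FGF8, which act on the surrounding granulosa and cumulus cells. It bears the receptor tyrosine kinase KIT, whose ligand KITL is classically made by granulosa cells. Connexin 37, the product of Gja4, forms the oocyte's side of the gap junctions, connexin 43, the product of Gja1, couples the granulosa cells to one another, and NPR2 is the granulosa-cell receptor for C-type natriuretic peptide whose cGMP passes through these junctions and holds the oocyte in meiotic arrest. At ovulation the oocyte resumes meiosis and its contacts with the cumulus are withdrawn.

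In the mm10 coordinates of the count tables, Gdf9 lies at chr11:53431023-53437904, Bmp15 at chrX:6314107-6320721, Bmp6 at chr13:38345716-38499728 and Fgf8 at chr19:45736798-45742915. Kit lies at chr5:75574916-75656722 and Kitl at chr10:100015630-100100416. The connexin genes lie at chr4:127311421-127314039 (Gja4) and chr10:56377330-56402513 (Gja1), and Npr2 lies at chr4:43631935-43651244. The counts are summed over the exons of each gene. Npr2 was the single member whose exons overlap another gene in the tables, the antisense Gm12473, with 266 shared bases and a median count of 1.

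RefSeq promoter windows on GRCm38.p6, from 250 bases before to 50 after the start, were at hand for 7 of the 9 genes. Windows for Gdf9 and Fgf8 were not used here. Windows of 1 oocyte ligand and of the oocyte and granulosa connexins are printed because these 3 genes stand for the 2 patterns found below. Capitals mark matches, on either strand, to the E-box CANNTG or to the NOBOX element TAATTG or TAATTA, the letters bound by an oocyte homeobox factor; no printed match to the one overlaps a match to the other. The Bmp15 window is chrX:6320675-6320974 on the minus strand, the Gja4 window chr4:127313990-127314289 on the minus strand and the Gja1 window chr10:56377050-56377349 on the plus strand.
Bmp15: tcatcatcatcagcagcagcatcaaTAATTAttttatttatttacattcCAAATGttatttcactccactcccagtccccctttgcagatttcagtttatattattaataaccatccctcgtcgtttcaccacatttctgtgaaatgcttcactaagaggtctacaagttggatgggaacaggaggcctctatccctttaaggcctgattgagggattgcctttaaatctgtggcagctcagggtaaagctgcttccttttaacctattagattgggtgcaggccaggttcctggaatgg
Gja4: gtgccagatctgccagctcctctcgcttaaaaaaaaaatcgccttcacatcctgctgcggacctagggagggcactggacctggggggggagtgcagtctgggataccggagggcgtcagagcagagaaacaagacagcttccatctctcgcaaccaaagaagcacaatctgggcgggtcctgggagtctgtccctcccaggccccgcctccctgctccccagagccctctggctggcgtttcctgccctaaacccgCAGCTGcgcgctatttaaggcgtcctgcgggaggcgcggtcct
Gja1: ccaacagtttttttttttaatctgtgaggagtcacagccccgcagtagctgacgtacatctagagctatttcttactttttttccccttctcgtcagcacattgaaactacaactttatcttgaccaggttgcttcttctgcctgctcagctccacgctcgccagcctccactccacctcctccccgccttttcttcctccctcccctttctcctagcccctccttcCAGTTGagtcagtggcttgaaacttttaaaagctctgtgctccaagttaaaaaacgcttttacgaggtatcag
Bmp15 held a NOBOX element 225 bases before the start, which 12.4% of 32851 windows of the same length hold, and it was the only one of the 7 genes with a match. All 7 genes had at least 1 E-box, a motif found in 72.3% of all windows. The single E-box of Gja1 begins 23 bases before its start and that of Gja4 begins 7 bases after. A match describes letters and does not show binding.

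The libraries held between 7832458 and 23739871 counts with a median of 14410784. Dnmt3a and Dnmt3l carry substitutions rather than deletions, and their mRNAs were present in all groups, at means of 294 to 325 CPM (counts per 1000000 of the TMM-scaled library size) and 116 to 144 CPM. The shares of mapped reads listed by the study split the libraries at 80% into a lower and a higher class. The lower class held 8 wild-type FGOs, 3 Dnmt3a-ADD, 8 double-ADD and 3 MII libraries, and the higher class held 10, 5, 0 and 7, together with all 8 Dnmt3L-ADD libraries. Comparisons were therefore also made within a class. All 12 oocyte markers were expressed at means over 1 CPM in every group, with summed levels between 6392 and 11359 CPM. Of 15 granulosa markers, 10 averaged under 1 CPM in MII oocytes and 10 in double-ADD FGOs, against 3 in wild-type FGOs. The remaining sum was made up largely by Cyp19a1, Esr2 and Nr5a2, whose means in MII oocytes were 25.4, 68.1 and 83.5 CPM against 24.7, 66.2 and 86.3 CPM in wild-type FGOs. Granulosa levels are given below for the other 12 markers, a choice made after these values were seen.

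Wild-type MII oocytes, whose contacts with the cumulus have been withdrawn, were set against wild-type FGOs, from which cumulus cells had been washed off with a capillary. How the MII oocytes sequenced were collected was not given in the sources used here. For its fertilizations the study took MII oocytes from females given inhibin antiserum and chorionic gonadotropin, some of them older than the FGO donors, and washed the cumulus off after fertilization. Between wild-type FGOs and MII oocytes, 2 of the 9 genes were called, which required an adjusted p under 0.05 and a change over 2-fold in edgeR's quasi-likelihood test, and both were lower. Over all 15784 genes tested 9.2% were called, 9% lower. Without the fold threshold 4 of the 9 genes passed, all lower, against 39.1% of all genes. By the rule used here, 7 genes were kept (not called lower), 2 were reduced (called lower) and 0 were lost (called lower with a mean under 10% of that in wild-type FGOs). A lower level in MII oocytes does not by itself place an mRNA outside the oocyte: 2 of the 12 oocyte markers were called lower, the zona pellucida genes Zp3, at 217 ± 31.3 against 845 ± 105 CPM, and Zp2, at 496 ± 66.9 against 1373 ± 294 (SD).

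**Figure D1:**
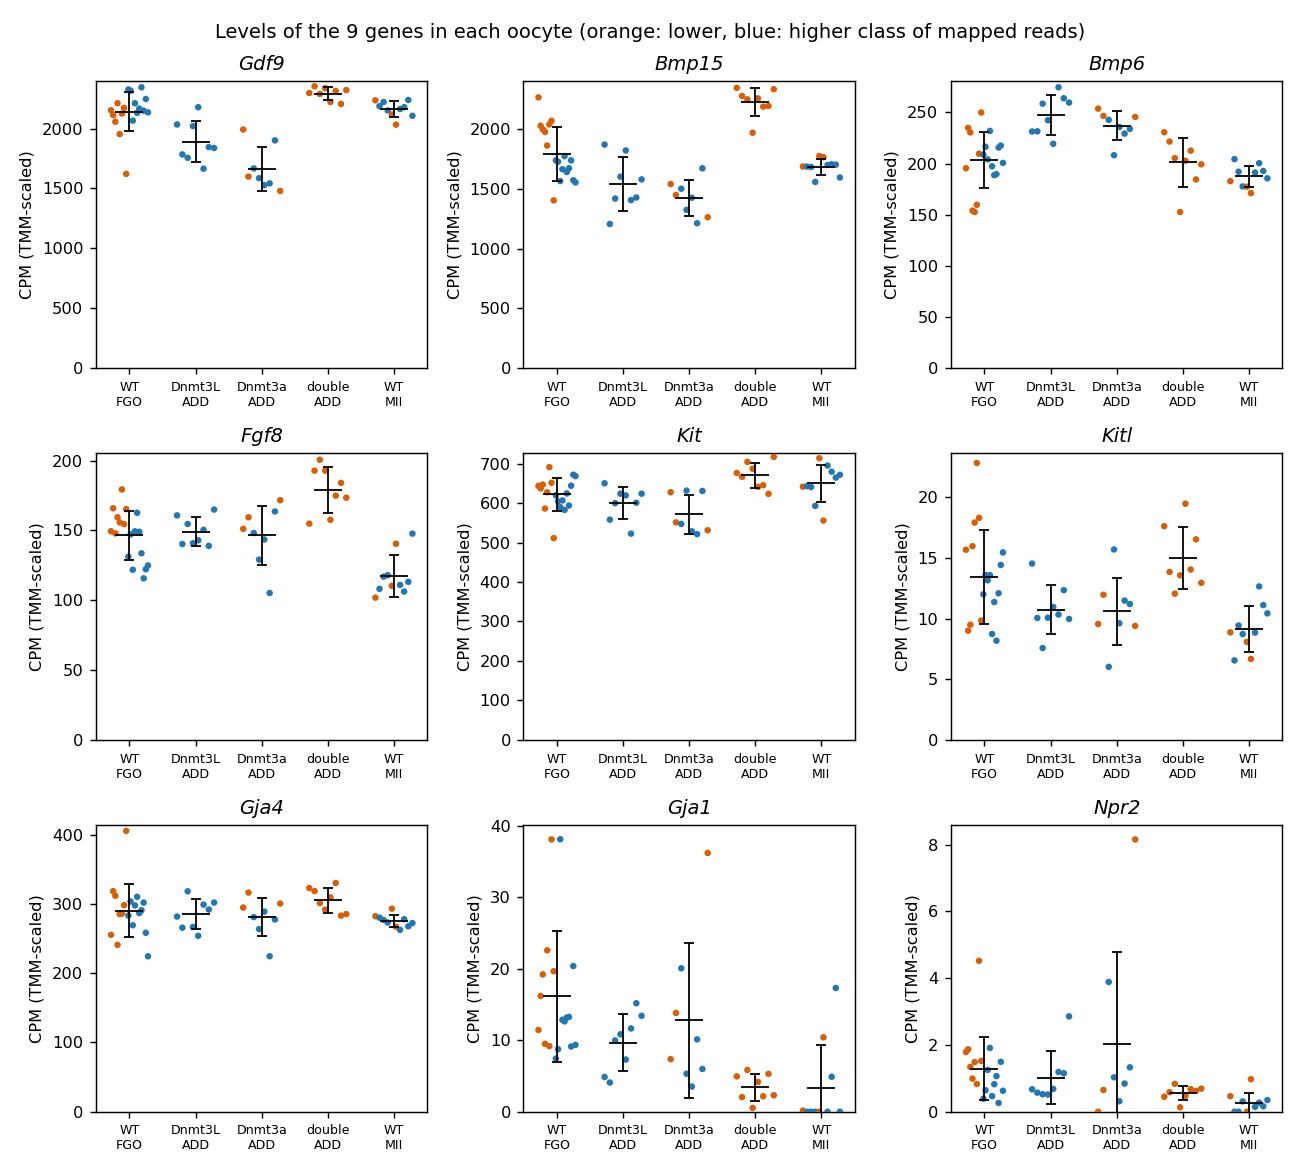
Levels of the 9 genes in each of the 52 oocytes. The y axes give TMM-scaled CPM on a linear scale from 0, points are single oocytes in replicate order coloured by class of mapped reads, and bars are the mean and SD, cut at 0. Gdf9, Bmp15, Bmp6, Fgf8, Kit and Gja4 have no group mean more than 2-fold from that of wild-type FGOs, whereas Gja1 and Npr2 spread widely in FGOs and sit at or near 0 in most MII oocytes.

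Gdf9 was the most abundant member. In wild-type FGOs it ranged from 1621 to 2345 CPM with a median of 2151, and in MII oocytes from 2033 to 2239 with a median of 2171, so that the MII values lay within the wild-type FGO range. Its log2 change was 0.02 ± 0.04 (SE, adjusted p = 0.79, edgeR quasi-likelihood). Bmp15 ranged from 1404 to 2265 CPM (median 1739) in wild-type FGOs and from 1558 to 1775 (median 1694) in MII oocytes, a log2 change of -0.09 ± 0.06 (edgeR adjusted p = 0.234). The 8 lower-class wild-type FGOs averaged 1955 ± 250 CPM of Bmp15 (SD) and the 10 of the higher class 1665 ± 80.3, and the MII difference was -0.20 (edgeR adjusted p = 0.0155) against the first and 0.03 (0.709) against the second. Bmp6, a further BMP ligand, stood lower than its fellow ligands, at 153 to 250 CPM (median 206) in wild-type FGOs and 171 to 204 (median 188) in MII oocytes. All 10 MII values of Bmp6 lay under the wild-type FGO median, with a log2 change of -0.12 ± 0.06 (edgeR adjusted p = 0.123).

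Fgf8, which promotes glycolysis in cumulus cells, fell in MII oocytes by less than 2-fold. It ranged from 116 to 179 CPM (median 149) in wild-type FGOs and from 102 to 148 (median 112) in MII oocytes. The groups overlapped, 6 of 10 MII oocytes lay below every wild-type FGO, and the log2 change was -0.32 ± 0.07 (edgeR adjusted p = 1.6e-04). With both groups of the higher class it was -0.20 and missed the threshold (edgeR adjusted p = 0.0543).

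Kit was kept, at 511 to 691 CPM (median 626) in wild-type FGOs and 556 to 714 (median 654) in MII oocytes, with a log2 change of 0.06 ± 0.04 (edgeR adjusted p = 0.23). Kitl is the member whose classical source is the granulosa cell, and it too was kept. Every one of the 52 oocytes held at least 72 Kitl reads. Wild-type FGOs ranged from 8.17 to 22.8 CPM (median 13.4) and MII oocytes from 6.55 to 12.6 (median 8.85), 68.1% of the wild-type FGO mean, with a log2 change of -0.55 ± 0.14 (edgeR adjusted p = 0.0012). All 10 MII values were under the wild-type FGO median and 3 were below its lowest value. With both groups of the higher class the Kitl change was -0.33 and missed the threshold (edgeR adjusted p = 0.107), and with both of the lower class it was -0.91 (0.00863). Per kilobase of exon, the mean level of Kit in wild-type FGOs was 30.8 times that of Kitl.

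The connexins separated. Gja4 ranged from 224 to 405 CPM (median 289) in wild-type FGOs and from 263 to 293 (median 275) in MII oocytes, a log2 change of -0.08 ± 0.05 (edgeR adjusted p = 0.263). Gja1 ranged from 7.43 to 38.1 CPM (median 13) in wild-type FGOs. In MII oocytes Gja1 was at 0 reads in 6 of 10 libraries, at 2 reads (0.155 CPM) in 1, and at 4.89, 10.4 and 17.3 CPM in MII oocytes 8, 6 and 9. Its log2 change was -2.29 ± 0.56 (edgeR adjusted p = 9.5e-04), and 8 of 10 MII oocytes lay below every wild-type FGO. MII oocyte 9 held the mean up: without it the change was -3.18 (edgeR adjusted p = 2e-05) and the mean 10.6% of that in wild-type FGOs, against 20.3% with it and a limit of 10% for a lost gene. Per kilobase, the mean Gja4 level in wild-type FGOs was 109 times that of Gja1.

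The 3 MII oocytes with Gja1 reads above 2 were also the only 3 of the 10 with reads of Inha, the inhibin alpha subunit of granulosa cells, at 0.300, 0.136 and 0.980 CPM in oocytes 6, 8 and 9. They were likewise the only 3 with Fst reads, at 1.12, 0.680 and 0.163 CPM. The Inha value of oocyte 8 and the Fst value of oocyte 9 were close to the limit of detection. Fst encodes follistatin, which binds activin. The summed 12 granulosa markers stood at 21.6 CPM in MII oocyte 6 and 12.4 in oocyte 9, against 2.17 in oocyte 8 and 0.701 to 3.03 in the other 7. Inhbb and Amh, both granulosa genes, were at 0 reads in all 10, these 3 included. Other granulosa markers did not follow Gja1 in oocyte 8. Inhba was at 10.2, 0 and 7.76 CPM in oocytes 6, 8 and 9. Cyp11a1, which had reads in all 10, was at 7.27, 0.136 and 0.653 CPM in them. The part of attached follicle cells in the Gja1 values was not tested, and fewer such cells and less RNA in each cannot be told apart in these libraries.

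Npr2 was close to the limit of detection. Its counts ran from 4 to 68 reads in wild-type FGOs (0.263 to 4.52 CPM, median 1.16) and from 0 to 13 in MII oocytes (0 to 0.974 CPM, median 0.218), with 3 MII libraries at 0, where 3 reads is the limit that a count of 0 allows. The log2 change was -2.20 ± 0.54 (edgeR adjusted p = 9.6e-04), and all 10 MII values lay under the wild-type FGO median. With both groups of the lower class the change was -1.82 and missed the threshold (edgeR adjusted p = 0.134).

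**Figure D2:**
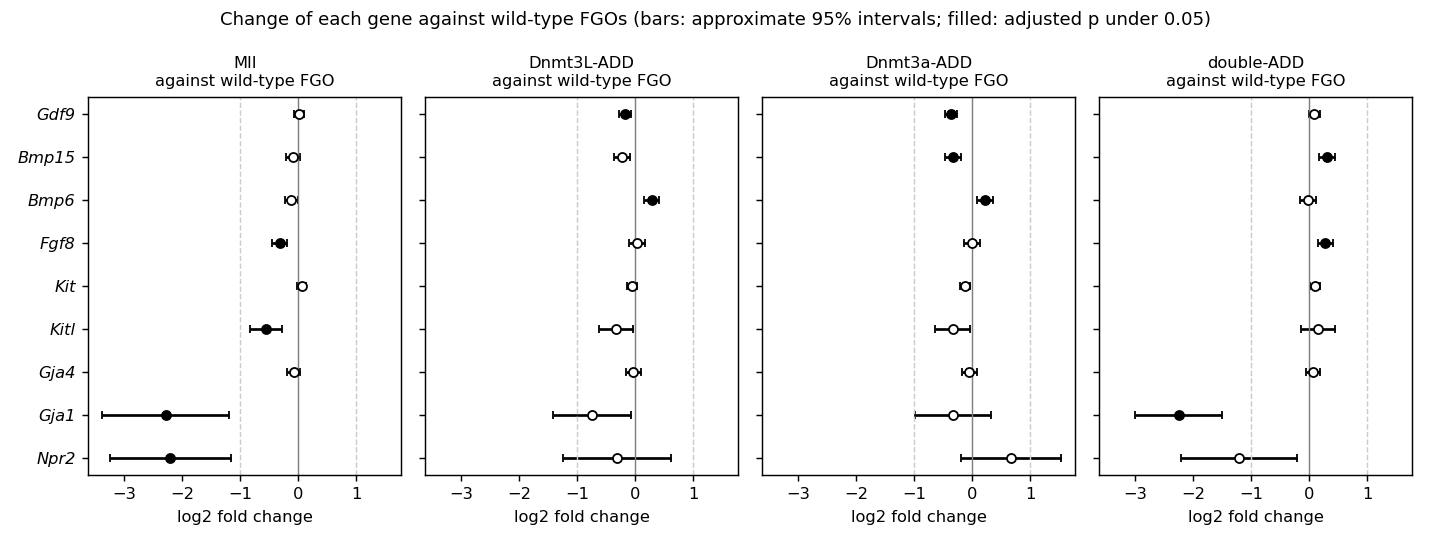
Log2 fold change of each gene against wild-type FGOs in 4 comparisons. Points are edgeR estimates, bars are approximate 95% intervals, filled points have an adjusted p under 0.05 and dashed lines mark 2-fold. Only Gja1 and Npr2 pass both thresholds in MII oocytes, and only Gja1 does so in double-ADD FGOs.

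Among the 18 wild-type FGOs, Gja1 had the highest correlation of the 9 genes with the granulosa markers, given here as a description of libraries that share depth and handling. On the log2(CPM + 1) scale its Pearson r with all 15 summed markers was 0.90 (Spearman rho 0.83), 0.81 without the 2 libraries farthest from the median sum, and 0.78 with the 12 markers. For Npr2 r was 0.52 (rho 0.44), for Kitl 0.09 (rho -0.03), for Gja4 0.15, for Kit -0.07 and for Gdf9 -0.29. Gja1 and Npr2 had the highest r of the 36 pairs of members, at 0.72. Over the 10 MII oocytes the r of Gja1 was 0.26 with all 15 markers and 0.88 with the 12, the latter falling to 0.46 without the 2 farthest libraries. With 15 and with 12 markers it was 0.34 and 0.66 in Dnmt3L-ADD, 0.74 and 0.90 in Dnmt3a-ADD and 0.29 and 0.39 in double-ADD FGOs, over 8 libraries each. Without the 2 farthest libraries the 15-marker values became 0.48, 0.28 and -0.13 in these mutants and -0.53 in MII oocytes. Other members had a higher 15-marker r than Gja1 in 3 of these groups. They included Bmp15 in Dnmt3L-ADD (0.44) and double-ADD FGOs (0.40) and Npr2 in MII oocytes (0.72). With the 12 markers only Bmp6 in double-ADD FGOs did (0.40). Kitl, with the 12 markers, had r of -0.12 in wild-type FGOs and -0.11 in MII oocytes.

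**Figure D3:**
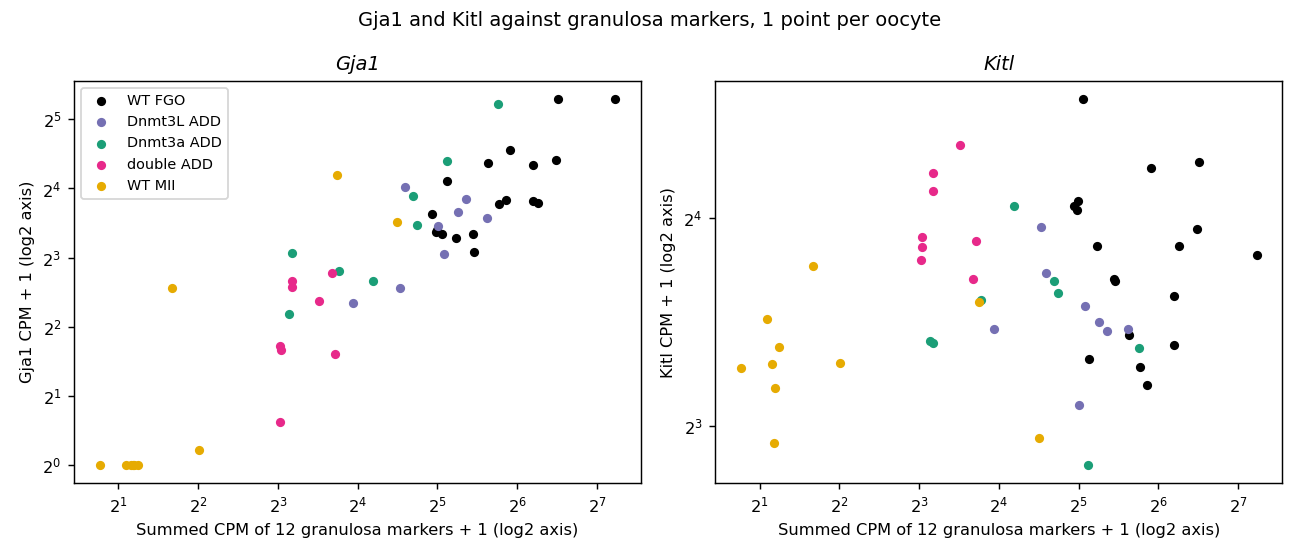
Gja1 and Kitl against the summed CPM of 12 granulosa markers, 1 point per oocyte coloured by group, with log2 axes after adding 1. Gja1 runs from 0 in 6 MII oocytes to 38.1 CPM in a wild-type FGO, while Kitl keeps to 6.02 to 22.8 CPM at every marker level. The 12 markers leave out Cyp19a1, Esr2 and Nr5a2, which did not fall in MII oocytes, a choice made after the values were seen. The distance between MII oocytes and FGOs on the marker axis follows in part from that choice. All 15 markers summed to 170 to 207 CPM in MII oocytes and 195 to 326 in wild-type FGOs.

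The first mutant comparison asks whether a DNMT3L protein altered in its ADD domain, the part that reads unmodified histone H3 tails, changes these genes. In Dnmt3L-ADD FGOs 0 of the 9 genes were called by edgeR's quasi-likelihood test, by its exact test or by DESeq2. Over the 15726 genes tested in FGOs 0.655% were called. At any fold change 2 of the 9 genes passed, against 6.13% of all genes. Bmp6 was higher, at 219 to 274 CPM (median 250), and 4 of 8 libraries exceeded every wild-type FGO. Its log2 change was 0.29 ± 0.07 (edgeR adjusted p = 0.0098), and 0.26 (0.00329) against wild-type FGOs of the higher class, to which all Dnmt3L-ADD libraries belong. Gdf9 was lower, at 1665 to 2179 CPM (median 1842), below the wild-type median in 7 of 8. Its log2 change was -0.18 ± 0.05 (edgeR adjusted p = 0.0308), and -0.22 (0.00447) within the higher class. That call was lost when any one of Dnmt3L-ADD replicates 3, 6, 7 or 8 was left out, with edgeR adjusted p between 0.057 and 0.0942 and changes between -0.18 and -0.16. The summed oocyte markers averaged 7622 ± 546 CPM (SD) there against 8835 ± 893 in wild-type FGOs, with 6 of 12 lower at any fold change, and their part in the Gdf9 value was not tested.

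Bmp15 in Dnmt3L-ADD FGOs, at 1206 to 1871 CPM (median 1503), had a log2 change of -0.22 (edgeR adjusted p = 0.0514), and -0.11 (0.34) within the higher class. It passed in DESeq2 (adjusted p = 0.035) and kept its side of the threshold in 23 of 35 alternatives. Their edgeR or DESeq2 adjusted p ran from 0.00335 to 0.34. Gja1 stood at 4.08 to 15.2 CPM (median 10.4), below every wild-type FGO in 3 of 8, with a log2 change of -0.74 ± 0.35 that missed the threshold (edgeR adjusted p = 0.19). The 12 granulosa markers summed to 14.4 to 48 CPM there, against 29.6 to 149 in wild-type FGOs, and their part in the Gja1 value was not tested. Kitl, at 7.57 to 14.5 CPM, had a change of -0.33 (edgeR adjusted p = 0.189). The 95% intervals of the changes of Fgf8 (-0.11 to 0.16), Kit (-0.14 to 0.03) and Gja4 (-0.15 to 0.10) stayed well inside 2-fold, and that of Npr2 (-1.25 to 0.62) did not.

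In Dnmt3a-ADD FGOs 0 of the 9 genes were called by edgeR's quasi-likelihood test, by its exact test or by DESeq2, and 2.05% of all genes were called. At any fold change 3 of the 9 passed, against 15.7% of all genes. Both Gdf9 and Bmp15 fell. Gdf9 ranged from 1479 to 1992 CPM (median 1593), with all 8 libraries under the wild-type median and 5 below every wild-type FGO, a log2 change of -0.36 ± 0.05 (edgeR adjusted p = 5.7e-06). Bmp15 ranged from 1212 to 1672 CPM (median 1437), with all 8 under the wild-type median and 3 below every wild-type FGO, a log2 change of -0.33 ± 0.07 (edgeR adjusted p = 0.0012). Within the lower class, with 3 mutant libraries, the changes were -0.27 for Gdf9 and -0.46 for Bmp15, and within the higher class, with 5, they were -0.43 and -0.23. Both stayed past the threshold under all 37 alternatives that were run, with edgeR or DESeq2 adjusted p of at most 0.0485 for Gdf9 and 0.0476 for Bmp15.

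Bmp6 moved the other way in Dnmt3a-ADD FGOs. It ranged from 208 to 254 CPM (median 239), with all 8 libraries above the wild-type median, and its log2 change was 0.22 ± 0.07 (edgeR adjusted p = 0.0238). Within the classes it was 0.34 (edgeR adjusted p = 0.0825) and 0.14 (0.215), and it missed the threshold when Dnmt3a-ADD replicate 1, 2, 3 or 8 was left out, at 0.20 to 0.21 (edgeR adjusted p between 0.0522 and 0.0673). The summed oocyte markers averaged 7151 ± 550 CPM (SD) in Dnmt3a-ADD FGOs and 8835 ± 893 in wild-type FGOs, and 7 of these 12 markers were lower at an adjusted p under 0.05, all by less than 2-fold. Among them Zp2, which encodes a zona pellucida protein, averaged 901 against 1373 CPM. The Gdf9 and Bmp15 values thus moved with those of other oocyte genes, and what part this has in the result was not tested.

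The remaining members of the Dnmt3a-ADD comparison did not pass. Kit had a log2 change of -0.12 ± 0.04 at the edge of the threshold (edgeR adjusted p = 0.0519). It passed in DESeq2 (adjusted p = 0.0389) and kept its side of the threshold in 23 of 37 alternatives, whose adjusted p ran from 0.0132 to 0.29. Kitl had a change of -0.34 ± 0.15 (edgeR adjusted p = 0.118), and the intervals of Fgf8 (-0.13 to 0.14) and Gja4 (-0.17 to 0.08) were narrow. Gja1 ranged from 3.52 to 36.2 CPM and Npr2 from 0 to 8.16. In both genes the highest value was that of Dnmt3a-ADD replicate 8, whose summed theca and interstitial markers were 64.8 CPM against a group median of 20.4 and whose 12 granulosa markers summed to 52.9 CPM against 21.1. Over the group the sum of these 12 averaged 22.9 ± 15.2 CPM against 58 ± 30.3 in wild-type FGOs (SD). That of all 15 averaged 204 ± 32.5 against 235 ± 36.4. Called lower were 6 of 14 granulosa markers, while Fshr, Amhr2, Lhcgr, Cyp19a1 and Esr2 had higher means than in wild-type FGOs. The Cyp11a1 call was lost without any of 4 single libraries (edgeR adjusted p between 0.055 and 0.0629). What part these markers have in the Gja1 and Npr2 values was not tested. Without replicate 8 the Npr2 change turned from 0.67 to -0.15, neither past the threshold (edgeR adjusted p = 0.31 and 0.847). The Gja1 change then went from -0.33 to -0.78 (edgeR adjusted p = 0.532 and 0.111).

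In double-ADD FGOs 1 of the 9 genes was called, Gja1, which was lower, and 1.65% of all genes were called, 1.48% lower. At any fold change 3 of the 9 passed, against 12.2% of all genes. Gja1 ranged from 0.532 to 5.85 CPM (median 3.24), and all 8 libraries lay below the lowest wild-type FGO at 7.43 CPM. The share of all tested genes whose values separate these groups in this way was not counted. The mean was 21.1% of the wild-type mean, and the log2 change was -2.25 ± 0.39 (edgeR adjusted p = 1.7e-04). It was -2.42 (0.00159) against wild-type FGOs of the lower class, to which all double-ADD libraries belong. Across all 35 alternatives run for this comparison it stayed between -2.56 and -2.09.

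Most granulosa markers, like Gja1, had lower group means in the double-ADD FGOs than in wild-type FGOs. Esr2, at 75.7 against 66.2 CPM, and Nr5a2, at 93.8 against 86.3, had higher means. All 15 markers summed to 200 ± 9.63 CPM against 235 ± 36.4 (SD). The 12 markers summed to 7.16 to 12.2 CPM, and 9 of the 14 granulosa markers tested were called lower. Inha averaged 0.893 ± 0.444 CPM against 9.82 ± 5.58 in wild-type FGOs, and Cyp11a1, the first enzyme of steroid synthesis, 0.756 ± 0.403 against 12.4 ± 10.8. Among theca and interstitial markers 4 of 6 tested were called lower, while Ptch1 had a higher mean, at 9.22 ± 9.27 against 6.01 ± 6.92 CPM (SD). Stroma and smooth muscle markers were called lower in 4 of 7 tested. Of these calls that of Star was lost without any of 11 single libraries (edgeR adjusted p between 0.0507 and 0.0853) and that of Col1a1 without either of 2 (0.0593 and 0.0599), while Cyp17a1 no longer passed the count filter without any of 8. The part of these cells in the Gja1 value was not tested. Npr2 stood at 0.133 to 0.836 CPM, all 8 under the wild-type median, and its change of -1.21 ± 0.51 missed the threshold (edgeR adjusted p = 0.109), although the exact test passed it (0.0367).

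Of the oocyte ligands in double-ADD FGOs, Bmp15 and Fgf8 were higher. Bmp15 ranged from 1970 to 2345 CPM (median 2253), all 8 above the wild-type median, with a log2 change of 0.30 ± 0.07 (edgeR adjusted p = 0.0044). Fgf8 ranged from 155 to 201 CPM (median 179), 4 of 8 above every wild-type FGO, with a log2 change of 0.28 ± 0.07 (edgeR adjusted p = 0.0074). Neither held against the lower-class wild-type FGOs, the class of the double-ADD libraries, where the changes were 0.18 (edgeR adjusted p = 0.345) and 0.16 (0.354). The summed oocyte markers averaged 9880 ± 714 CPM (SD) in double-ADD FGOs against 8835 ± 893 in wild-type FGOs, with 2 of 12 higher at any fold change, and their part in these values was not tested. Gdf9 (0.09), Bmp6 (-0.02), Kit (0.10), Kitl (0.15) and Gja4 (0.06) did not pass, and the interval of Gja4 ran from -0.06 to 0.19. Kitl in these oocytes, at 12 to 19.5 CPM, stood above the wild-type median in 6 of 8, while Gja1 was below every wild-type FGO. Their Kitl median of 13.9 CPM was under that of lower-class wild-type FGOs, at 15.8. Against that class the Kitl change was 0.007 (edgeR adjusted p = 0.994).

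GDF9 and BMP15 act together, also as a heterodimer, so that the balance of their mRNAs is of interest. Per kilobase, the Gdf9 to Bmp15 ratio had a geometric mean of 1.80 in wild-type FGOs, 1.86 in Dnmt3L-ADD, 1.76 in Dnmt3a-ADD, 1.55 in double-ADD FGOs and 1.93 in MII oocytes. Over 4 comparisons with wild-type FGOs, only that of double-ADD FGOs passed, with a mean log2 difference of -0.22 (exact two-sided permutation test, p = 0.0044, adjusted p = 0.0178). The ratio also split the wild-type FGOs by class. It ran from 1.43 to 1.74 in the 8 of the lower class and from 1.81 to 2.15 in the 10 of the higher class, without overlap, a difference of -0.33 on the log2 scale (exact permutation test, p = 4.57e-05, the smallest this test can give). Within its own class the double-ADD difference was -0.03 (exact permutation test, adjusted p = 0.486) and that of Dnmt3L-ADD -0.11 (0.0636).

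For Dnmt3a-ADD FGOs the ratio had a pooled difference of -0.04 (exact permutation test, adjusted p = 0.603), which was 0.17 (0.0364) within the lower class and -0.20 (0.00533) within the higher. The mutant libraries of the lower and the higher class lay close together, with medians of 1.76 and 1.71, while the wild-type classes stood at 1.58 and 2.01. For MII oocytes the pooled difference was 0.10 (permutation test with 100000 resamples, adjusted p = 0.231), with 0.21 (exact permutation test, 0.0364) in the lower and -0.02 (0.584) in the higher class.

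**Figure D4:**
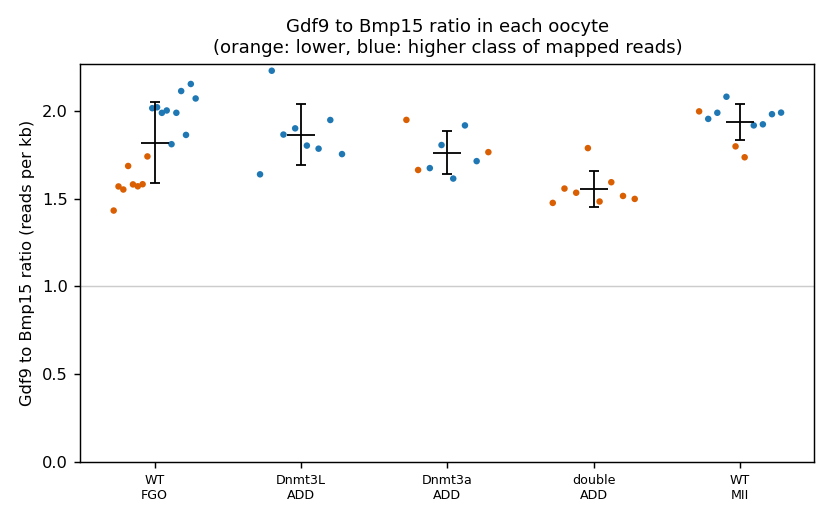
Ratio of Gdf9 to Bmp15 reads per kilobase in each oocyte by group, on a linear axis from 0, with points coloured by class of mapped reads and bars giving the mean and SD. The wild-type FGOs fall into 2 ranges by class, 1.43 to 1.74 and 1.81 to 2.15, and the double-ADD FGOs overlap the lower one.

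Ordered by mean level, few neighbouring groups passed the threshold. In the fit of all 52 libraries, 5 of 36 neighbouring pairs had an edgeR adjusted p under 0.05. For Gdf9 the order was double-ADD, MII, wild-type, Dnmt3L-ADD and Dnmt3a-ADD, with a step between wild-type and Dnmt3L-ADD (0.0122). For Bmp15 it was double-ADD, wild-type, MII, Dnmt3L-ADD and Dnmt3a-ADD, with a step after double-ADD (8.7e-04). For Bmp6 it was Dnmt3L-ADD, Dnmt3a-ADD, wild-type, double-ADD and MII, with a step between Dnmt3a-ADD and wild-type (0.0118). For Fgf8 it was double-ADD, Dnmt3L-ADD, Dnmt3a-ADD, wild-type and MII, with steps at either end (0.0166 and 1.6e-04). The first of these sets a group wholly of the lower class against one wholly of the higher, so that class and genotype cannot be told apart, and wild-type FGOs of the same classes averaged 160 ± 10.3 and 136 ± 15.4 CPM of Fgf8 (SD). The neighbours in the orders of Kit, Kitl, Gja4, Gja1 and Npr2 did not differ beyond their spread. For Gja1 the order was wild-type, Dnmt3a-ADD, Dnmt3L-ADD, double-ADD and MII.

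Over the 52 libraries and 15784 tested genes, the genes whose log2(CPM + 1) profiles were most like each member differed between the connexins. These profiles hold the differences between groups given above, so the likenesses are not a separate check. Gja1 was most like Ucp2, Akr1cl and Cpe, with Pearson r of 0.89, 0.88 and 0.88. Akr1cl averaged 15.9 CPM in wild-type FGOs, 4.08 in double-ADD FGOs and 4.05 in MII oocytes. Npr2 was most like Gramd1b (0.83), Foxl2os (0.82) and Adamts10 (0.80), of which Foxl2os lies beside the granulosa factor gene Foxl2. Gja4 had weaker likenesses, with 2010107G23Rik (0.70), Cpsf4l (0.66) and Pcgf1 (0.65). Gdf9 was most like G3bp2 (0.85), Ldhb (0.83) and Hsp90aa1 (0.83), Bmp15 like Skp1a (0.91), Sypl (0.89) and Eif4g2 (0.87), and Bmp6 like Ruvbl2 (0.86), P4ha1 (0.85) and Sh3gl1 (0.85). Fgf8 was most like Fam92a (0.81), Tmem70 (0.81) and Ebpl (0.79), and Kitl like Clp1 (0.81) and Rlf (0.81). Kit was most like Mtmr14 (0.75), Gdf9 (0.73) and G3bp2 (0.72).

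The wider pathway was read from 115 listed genes of receptors, transducers, inhibitors and targets. In MII oocytes 0 were called higher and 8 lower of 86 tested, in Dnmt3L-ADD FGOs 0 and 0 of 87 (5 higher and 1 lower at any fold change), in Dnmt3a-ADD 2 and 1, and in double-ADD 1 and 6. Over all genes tested the shares called were 9.2%, 0.655%, 2.05% and 1.65% in the same order, and the MII share of the list is close to the first of these. The list medians, at 0.02, 0.02, 0.02 and -0.04 log2, stood beside medians over all genes of -0.05, -0.03, -0.03 and -0.01. Of 5 tested BMP and activin antagonists, 2 were lower in MII oocytes and 3 in double-ADD FGOs, where 9% and 1.48% of all genes were. Fst averaged 2.57 ± 1.34 CPM in wild-type FGOs (SD, n = 18), 0.197 ± 0.389 in MII oocytes and 0.420 ± 0.354 in double-ADD FGOs. Grem1, which encodes a BMP antagonist, was called lower in double-ADD FGOs, at 0.190 ± 0.193 against 1.86 ± 3.93 CPM, where the wild-type median was 0.610 and the highest value 16.4. None of 9 tested BMP and TGF-beta receptors, 4 proprotein convertases, 8 FGF receptor and feedback genes, 19 genes downstream of KIT or 11 other connexins and pannexins was called in any of the 4 comparisons by edgeR's quasi-likelihood test. At any fold change 3 of the BMP and TGF-beta receptors were lower in MII oocytes and 4 higher in double-ADD FGOs, beside 39.1% and 12.2% of all genes that passed in either direction. Of the SMAD genes 1 was called, the inhibitory Smad7, lower in MII oocytes at 0.513 ± 0.390 against 1.79 ± 0.769 CPM.

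Contact genes included Fscn1, which encodes the actin-bundling fascin, called lower in MII oocytes (3.52 ± 1.79 CPM) and in double-ADD FGOs (3.33 ± 0.495) against wild-type FGOs (7.04 ± 2.41). It was the only one called of 9 tested, and its MII change, close to 2-fold, fell short of it when any of 14 single libraries was left out. Of 8 natriuretic peptide and cGMP genes, Impdh2, an enzyme of guanine nucleotide synthesis, and Pde5a, a cGMP phosphodiesterase, were called lower in MII oocytes, at 1.59 ± 0.474 against 6.45 ± 3.83 CPM and 1.60 ± 0.821 against 3.94 ± 2.46. Npr1, a natriuretic peptide receptor, was called higher in Dnmt3a-ADD FGOs, at 1.40 ± 2.41 against 0.367 ± 0.374 CPM, a call that rested on replicates 3 and 8: without either it missed the threshold (edgeR adjusted p = 0.0825 and 0.524). Of 6 tested cumulus targets of oocyte factors, Has2, the hyaluronan synthase of cumulus expansion, was called higher in Dnmt3a-ADD (2.25 ± 1.61 CPM) and double-ADD FGOs (2.47 ± 1.48) against 0.934 ± 0.689 in wild-type FGOs. The call in Dnmt3a-ADD was lost without replicate 5 (log2 change 0.85, edgeR adjusted p = 0.12). Amh was called lower in Dnmt3a-ADD (0.652 ± 0.520 CPM) and double-ADD FGOs (0.751 ± 0.472) against 2.15 ± 1.49, and was at 0 in all 10 MII oocytes. Its double-ADD call was lost without double-ADD replicate 1, 2, 4, 5 or 8 or wild-type FGO replicate 12 (edgeR adjusted p between 0.0501 and 0.0674). Slc38a3, an amino acid transporter gene, was called lower in double-ADD FGOs, at 0.0343 ± 0.0635 against 0.818 ± 0.990 CPM, and was also at 0 in all MII oocytes.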

How the data were processed

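Each of the 52 libraries was made from a single oocyte with the SMART-Seq HT kit, which primes cDNA on poly(A) tails, so that a change in tail length and a change in mRNA amount cannot be told apart. Per the labels, cumulus cells were removed from FGOs by capillary washing, reads were aligned to mm10 with STAR and HTSeq is named for counting, beside featureCounts in the study's methods. The deposited values are raw counts per gene, 1 table per oocyte, in a layout that also gives exon coordinates and length. The annotation release, strand setting and handling of reads with several matches are not given in the sources used here, and without strand the reads of a gene and its antisense partner cannot be told apart. The 3 embryo libraries were not used.

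Genes were filtered with filterByExpr (minimum count 10) and scaled by TMM. They were tested with edgeR 4.0.16 (R 4.3.3) quasi-likelihood fits with a 1-factor group design, over all 5 groups for MII oocytes (15784 genes) and over the 4 FGO groups for the mutants (15726 genes), with Benjamini-Hochberg adjustment over all genes. The thresholds (adjusted p under 0.05, over 2-fold) were those of the study. All 9 members passed the filter. CPM values use the TMM-scaled library sizes. Ratios were compared by permutation in scipy 1.17.1. The fits were tested on simulated counts. No 2 libraries of a group agreed within sampling noise (lowest chi-square per degree of freedom 5.39). Depth was 7832458 to 23739871 counts. Intervals of 95% are normal approximations from the standard errors, and limits for counts of 0 cover counting error only.

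Members and lists were chosen with earlier results of these data known. The genes named beyond the members are, from each list and comparison, at most the 2 called genes with the lowest p in each direction, and for each member the 3 genes with the highest r. Some genes that these rules name are not reported here. Further marker genes, MII oocytes 6, 8 and 9 and Dnmt3a-ADD replicate 8 were singled out after their values were seen. Alternatives were other scaling, filter and fold settings, DESeq2 1.42.0, the exact test, fits of 2 groups, the class of mapped reads (80%), a replicate block, and leaving out each library. Same-class fits of both groups and the shorter marker list were added after the data were seen. The mapped shares come from the study's own sequencing summary.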

Additional observations from a re-analysis of the deposited data

Results flagged for a closer look

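Single oocytes stood apart from their group in 4 of the 40 sets of values checked by Dixon's criterion, where chance flags about 1 in 20. Bmp15 in double-ADD FGO replicate 4 was 1970 CPM, the next value being 2188. The Gdf9 to Bmp15 ratio of the same oocyte was 1.79, the next being 1.59. Npr2 was 2.86 CPM in Dnmt3L-ADD FGO replicate 8 against 1.19 in the next, and 0.974 CPM in MII oocyte 6 against 0.466 in the next. The last of these is also 1 of the 3 MII oocytes with Gja1 reads above 2.

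Against all wild-type FGOs, Bmp15 was lower in Dnmt3a-ADD and higher in double-ADD FGOs. The second change missed the threshold against wild-type FGOs of its own class of mapped reads (0.18, edgeR adjusted p = 0.345), with class as a covariate (0.22, 0.101) and under a replicate block (0.19, 0.306). The block is not a separate check. Wild-type FGO replicates 1 to 8 are the lower class, and replicates 9 to 18 exist in no mutant group. It therefore leaves the comparison with lower-class wild-type FGOs. The difference between these mutants, tested directly, was 0.65 on the log2 scale (edgeR quasi-likelihood, adjusted p = 4.6e-08). The ranges were 1212 to 1672 CPM and 1970 to 2345 CPM, without overlap, and the share of all genes that separate these mutants was not counted. All double-ADD libraries but only 3 of 8 Dnmt3a-ADD libraries were of the lower class of mapped reads, in which wild-type FGOs also had the higher Bmp15 mean, and its part in the difference was not tested.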

How the results depend on the processing

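Gja1 kept its direction and its side of the threshold in all alternatives run for MII oocytes (39) and for double-ADD FGOs (35), as did Gdf9 and Bmp15 in Dnmt3a-ADD FGOs (37). Without the fold threshold the number of members passing was 4 in MII oocytes, 2 in Dnmt3L-ADD, 3 in Dnmt3a-ADD and 3 in double-ADD FGOs. The edgeR exact test called 2 members in double-ADD FGOs, and fits with both groups of the lower class called 1 in MII oocytes. Leaving out single libraries left these counts at 2, 0, 0 and 1 and the number of members lost in MII at 0. The Gdf9 to Bmp15 difference for MII oocytes was 0.29 and -0.048 against lower- and higher-class wild-type FGOs, and 0.21 and -0.018 with both groups of 1 class. For Dnmt3L-ADD it was 0.23 and -0.11, for Dnmt3a-ADD 0.15 and -0.19 (both groups of 1 class 0.17 and -0.20), and for double-ADD against the lower class -0.031. These follow the split of wild-type FGOs by class, the cause of which was not tested. The correlation of Gja1 with granulosa markers in wild-type FGOs went from 0.90 to 0.81 without 2 libraries and to 0.78 with 12 markers. Under a replicate block the counts of members called were 2, 0, 0 and 1, with Gja1 at -3.41 in MII oocytes. Replicate numbers did not pair the libraries (correlations of same-numbered libraries from -0.51 to 0.47, 0 best with their own number). Wild-type FGO replicates 1 to 8 are the lower class, and replicates 9 to 18 exist in no mutant group. For the mutants the block therefore leaves the comparison with lower-class wild-type FGOs and is not a separate check. Under the block Bmp15 and Fgf8 in double-ADD and Gdf9 in Dnmt3L-ADD missed the threshold. Bmp15 in MII and Dnmt3L-ADD and Kitl in Dnmt3L-ADD and Dnmt3a-ADD passed it. Npr2, at 0 to 146 reads, is limited by depth.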
